A study of Mus musculus with 7 samples.

Results

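The mammalian circadian clock keeps time because its repressor proteins PER and CRY are made, marked by phosphate, tagged with ubiquitin and destroyed on a daily schedule. The enzymes that set the speed of this turnover set the period of the clock. This account describes 9 genes that encode such enzymes, chosen by symbol from the 54309 genes of the deposited table: the casein kinases Csnk1d, Csnk1e and Csnk2a1, the glycogen synthase kinases Gsk3a and Gsk3b, the F-box proteins Btrc, Fbxw11 and Fbxl21, and the deubiquitinase Usp2. All 9 were found, once each, and all 9 passed a filter on low values, a mean of 1 or more TPM (a transcript abundance per length, scaled to the same total in every sample).

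Each enzyme acts at a known step. Casein kinases 1 delta and epsilon phosphorylate PER and open a degron that the beta-TrCP proteins, encoded by Btrc and Fbxw11, recognise, so that PER is sent to the proteasome. Casein kinase 2 and the GSK3 kinases phosphorylate PER, CRY and other clock proteins and shift their stability and entry into the nucleus. FBXL21 binds CRY, and USP2 removes ubiquitin from clock proteins and is itself a rhythmic transcript in many tissues.

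RNA was measured in lumbar L4-6 dorsal root ganglia, which hold the cell bodies of sensory neurons, from C57bl/6 mice labelled male and 6 to 8 weeks old. No engineered allele is labelled. Every animal had a sciatic nerve injury, at Zeitgeber time (ZT, hours from lights on) 20 in the first group (4 samples) and at ZT8 in the second (3 samples), and the ganglia were taken 72 h later, so injury and dissection share a clock time. The ganglia were dissociated with Dispase II, Collagenase Type II and Papain and enriched for neurons on an albumin gradient, and no uninjured group is labelled. The labels do not say how many animals stand behind a sample, and the p-values measure the spread between these samples.

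Several libraries stood apart before any gene was compared. The Y-linked gene Ddx3y measured 24.2 TPM in the first and 11.7 TPM in the second ZT20 replicate and was listed at 0 in ZT20 replicates 3 and 4, against 15.3 to 20.7 TPM at ZT8, so 2 libraries labelled male went against that label. In those 2 libraries Xist, transcribed from the inactive X chromosome, was at 2.21 and 2.30 TPM. ZT20 replicate 2 held both Y-linked transcripts and Xist (1.08 TPM), and Xist was at 0.00467 TPM or less in the other 4 libraries. ZT8 replicate 2 had the fewest genes above 0 TPM, 18297 against 22541 to 25238 in the others. Depth is unknown, because TPM sums to the same total in every sample. Neuronal markers were abundant in every library, with a summed level over 10 genes of 17618 to 22443 TPM at ZT20 and 13762 to 20723 TPM at ZT8. The 6 satellite glia markers summed to 7483 to 9148 TPM at ZT20 and 12760 to 15466 TPM at ZT8, and 3 of them, Apoe and Fabp7 included, were lower at ZT20 by limma with Benjamini-Hochberg adjustment. Apoe alone made up most of that sum, and Kcnj10 and Cdh19 of the same list had log2 differences of 0.21 and 0.38 that did not pass. By the same test 2 of the 10 neuronal markers, Elavl4 (log2 difference 1.08) and Pou4f1 (1.32), were higher. The 8 that did not pass were Rbfox3 (0.59), Nefm (0.41), Tubb3 (0.31), Nefl (0.28), Snap25 (0.12), Prph (0.027), Isl1 (−0.041) and Uchl1 (−0.096). Of 7 macrophage markers 1 was lower, C1qa (−1.17), with C1qb (−0.84), Aif1 (−0.95), Cx3cr1 (−0.34), Csf1r (−0.16), Cd68 (−0.12) and Lyz2 (0.0100) not passing. Of 4 plasma cell markers 1, Mzb1 (−2.88), was lower. Jchain (−3.19), at 4.18 to 176 TPM within ZT20, and Sdc1 (−0.0047) did not pass, and Tnfrsf17 was too low to be tested. The ranges for 5 Schwann cell markers were 1115 to 1247 and 896 to 1288 TPM, for 7 macrophage markers 298 to 626 and 320 to 725 TPM, and for 4 plasma cell markers 107 to 295 and 364 to 706 TPM. Those for 4 fibroblast markers were 68.0 to 94.8 and 76.9 to 184 TPM, and for 3 endothelial markers 2.49 to 3.45 and 0.422 to 3.57 TPM. No listed marker was at 0 in all samples. In bulk RNA of this kind, fewer cells of a type and less RNA per cell cannot be told apart.

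The start regions of the genes are shown for Csnk2a1, the one gene of the 9 that passed the test below, and for Usp2, the gene known as a clock output. RefSeq windows of 300 bases (250 before and 50 after the annotated start, build GRCm38.p6) were matched by symbol for 7 of the 9 genes. Capitals mark the GC box, GGGCGG, on either strand, where copies may overlap.
Csnk2a1 (chr2:152226590-152226889, plus strand): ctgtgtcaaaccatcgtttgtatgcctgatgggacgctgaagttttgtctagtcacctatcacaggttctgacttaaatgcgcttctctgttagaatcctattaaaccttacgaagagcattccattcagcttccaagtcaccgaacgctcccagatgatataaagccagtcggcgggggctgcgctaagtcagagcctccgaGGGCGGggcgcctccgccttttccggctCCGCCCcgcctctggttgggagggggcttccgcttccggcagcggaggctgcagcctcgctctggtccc
Usp2 (chr9:44084670-44084969, plus strand): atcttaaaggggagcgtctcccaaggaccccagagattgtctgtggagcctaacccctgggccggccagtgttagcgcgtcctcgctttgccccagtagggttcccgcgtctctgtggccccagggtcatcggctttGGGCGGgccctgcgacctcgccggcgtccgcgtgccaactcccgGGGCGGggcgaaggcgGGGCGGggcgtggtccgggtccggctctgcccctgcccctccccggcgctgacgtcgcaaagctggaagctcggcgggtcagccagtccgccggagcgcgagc
The Csnk2a1 window held 2 GC boxes and the Usp2 window 3. Letters of 3 clock-related motifs were searched on both strands: the E-box CACGTG, bound by CLOCK and BMAL1, the D-box TTANGTAA and the cyclic AMP element TGACGTCA. None of them was found in the windows of the 7 genes (Csnk1e had 4 windows). Of 32851 windows of this length, 7.15% held the E-box, 2.32% the D-box and 1.79% the cyclic AMP element. The GC box was found for 5 of the 7 genes, counted by gene over any of its windows, and in 35.7% of all windows, counted by window. The CCAAT box, CCAAT, was found in Gsk3a and Gsk3b, 4 times in the Gsk3b window, and in 37.4% of all windows. These matches describe the letters of the windows and nothing more.

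Levels per transcript length spanned a wide range within this small set. Averaged over all 7 samples, Csnk2a1 was highest at 242 TPM, above 94.6% of tested genes. It was the highest of the 9 in 4 of 4 ZT20 samples but in 1 of 3 ZT8 samples. Gsk3b (127 TPM), Csnk1d (123.3 TPM) and Fbxw11 (123.3 TPM) followed. These 3 could not be ordered: Gsk3b lay above Csnk1d in 2 of 7 samples, and Csnk1d above Fbxw11 in 4 of 7. Csnk2a1 lay above Gsk3b in 6 of 7 samples. Btrc (56.1 TPM) lay below Fbxw11 in 7 of 7 samples, and Csnk1e (26.8 TPM) below Btrc in 7 of 7. Usp2 (13.9 TPM) and Gsk3a (12.6 TPM) could not be ordered either, since Usp2 was the higher in 3 of 7 samples. Fbxl21 was lowest at 3.73 TPM, below Gsk3a in 7 of 7 samples and above 24.5% of tested genes.

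**Figure D1:**
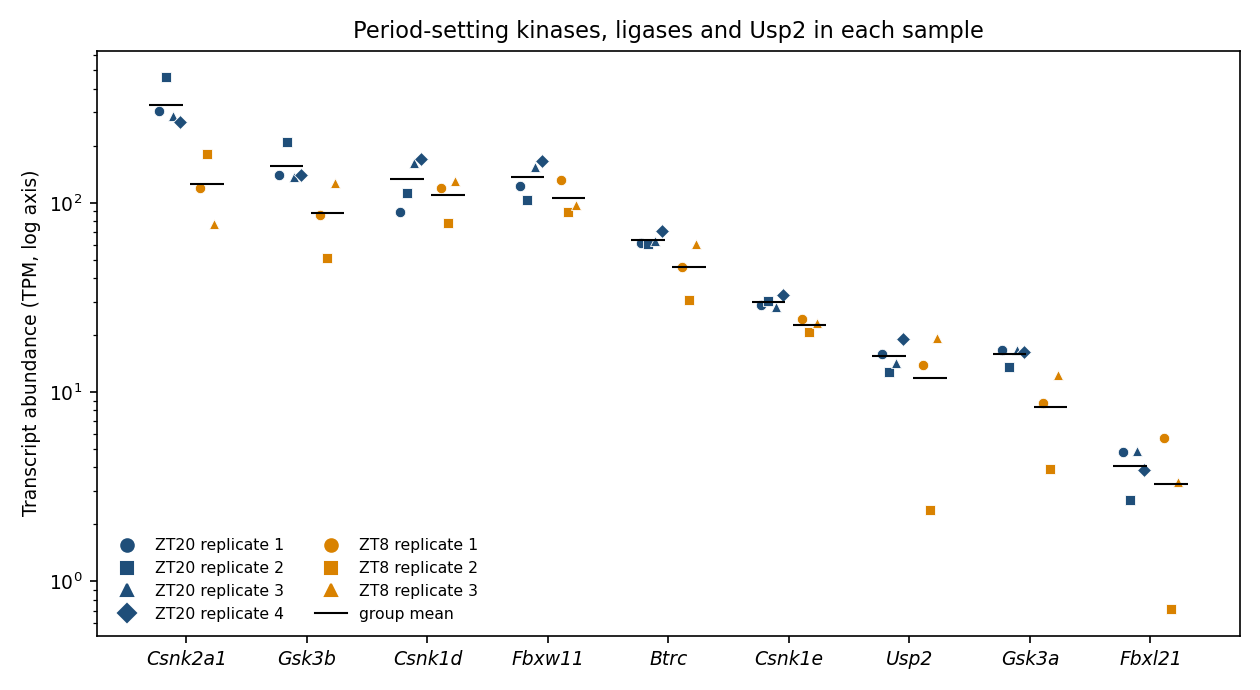
Transcript abundance of the 9 genes in each sample (TPM, log axis), with ZT20 in blue, ZT8 in orange, a symbol for each replicate and a black line at the group mean. Csnk2a1 has the highest mean over all samples, and its 4 ZT20 values (268 to 460 TPM) lie above its 3 ZT8 values (77.4 to 181 TPM); ZT8 replicate 2 is the lowest sample for 8 of the 9 genes, all but Csnk2a1.

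The question the design poses is whether transcripts in injured ganglia differ with clock time. The submitters named the ZT20 libraries by numbers and the ZT8 libraries by letters, and any difference in handling that goes with these names cannot be told apart from clock time. Each difference below is ZT20 minus ZT8 on the log2(TPM + 1) scale, from limma fitted over all 14800 genes tested, with p-values adjusted over all of them. By that fit 1 of the 9 genes (11.1%) passed an adjusted p-value of 0.05, against 16.4% of all tested genes. That gene was Csnk2a1, and it was higher at ZT20, as 12.8% of all tested genes were; 0 of the 9 were lower, against 3.61%, and 5 had an unadjusted limma p under 0.05, against 34.6% of all tested genes. That number was 2 of the 9 under median-ratio scaling and under quantile normalization, where the shares of all genes were 32.9% and 30.9%. All 9 differences were positive in this fit, as were 66.4% of those of all tested genes. All 9 were also positive under median-ratio scaling, with Csnk1d at 0.024, and under quantile normalization, with Fbxl21 at 0.0020. The share of positive differences among all genes was not computed for these scalings. In the reported fit the median of the 9 differences was 0.52 against 0.23 for all genes. Without ZT8 replicate 2 these medians were 0.27 and 0.15, and Fbxl21 (−0.12) and Usp2 (−0.092) were negative. Without ZT8 replicate 1 the medians were 0.87 and 0.28. The median of the 9 and that of all genes were 0.28 and 0.014 under median-ratio scaling and 0.40 and 0.0046 under quantile normalization. With a correction for transcript length and GC content they were 0.21 and −0.0083. Over all genes 1899 were higher and 534 lower (78.1% higher). The split was 1095 and 1265 (46.4% higher) under median-ratio scaling, 1023 and 814 (55.7% higher) under quantile normalization, and 528 and 776 (40.5% higher) after a correction for transcript length and GC content.

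**Figure D2:**
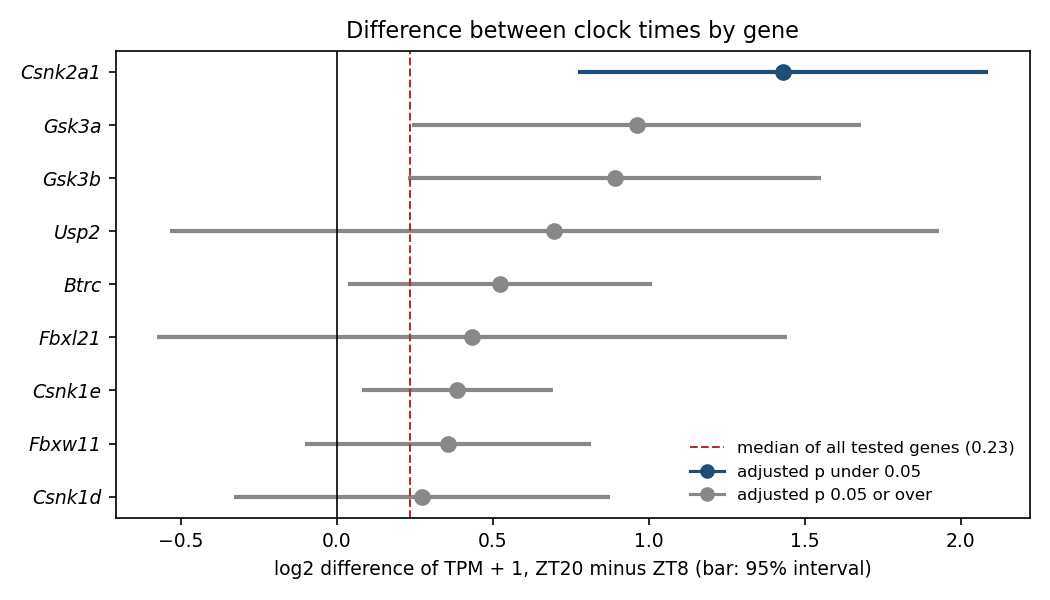
Difference between ZT20 and ZT8 for each gene on the log2(TPM + 1) scale (points) with its 95% interval from limma (bars) and the median of all tested genes (dashed line, 0.23). Csnk2a1, in blue, is the gene past the adjusted threshold, and the intervals of Csnk1d, Fbxw11, Fbxl21 and Usp2 include 0.

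Casein kinase 2 is a constitutively active kinase built from catalytic alpha or alpha-prime subunits and a regulatory beta subunit. Csnk2a1 (ENSMUSG00000074698), which encodes the alpha subunit, measured 305, 460, 286 and 268 TPM across the ZT20 replicates 1 to 4. At ZT8 it was at 120, 181 and 77.4 TPM in replicates 1 to 3. The groups did not overlap, replicate 2 was the highest sample in each group, and the lowest ZT8 sample was replicate 3. The ZT20 mean was 330 ± 87.9 TPM (SD, n = 4) and the ZT8 mean 126 ± 52.3 TPM (SD, n = 3), a 2.61-fold ratio of means. The log2 difference was 1.43 with a standard error of 0.29 and a 95% interval of 0.77 to 2.09 (limma adjusted p = 0.0158). It lay above 97.6% of the differences of tested genes. Of the 1962 genes averaging 100 TPM or more, 29, Csnk2a1 included, were higher at ZT20 by at least as much. Genes lower at ZT20 by as much were not counted. Leaving out any one library gave differences of 1.12 to 1.73, and the gene passed the threshold each time. Without ZT20 replicates 3 and 4, where Ddx3y is listed at 0, the difference was 1.65, and limma called 0 genes in the whole table (Csnk2a1 adjusted p = 0.141; 2378 genes had an unadjusted p under 0.05). The 4 Csnk2a1 pseudogenes are listed at 0 to 0.362 TPM, and GENCODE M21 places no other gene over Csnk2a1.

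The other casein kinase 2 subunits are no members of the set but complete the enzyme. Csnk2a2 (alpha-prime) was at 6.35, 6.54, 6.07 and 4.40 TPM at ZT20 and at 1.46, 3.87 and 3.26 TPM at ZT8. All 4 ZT20 values lay above the ZT8 values, but the difference of 0.87 did not pass (limma adjusted p = 0.0688). Csnk2a2 passed without ZT8 replicate 2 and with array weights, and did not pass after the length and GC correction. Csnk2b (beta) was at 74.2 to 105 TPM at ZT20 and 52.9 to 94.8 TPM at ZT8. Its ranges overlapped, and its difference was 0.30 (limma adjusted p = 0.333). It was 0.11 without ZT8 replicate 2 and 0.53 without ZT8 replicate 3, and passed in neither (limma adjusted p = 0.706 and 0.0872).

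The casein kinases 1 did not pass the test. Csnk1e (ENSMUSG00000022433) was at 28.9, 30.1, 28.2 and 32.4 TPM at ZT20 and at 24.2, 20.7 and 23.1 TPM at ZT8. It was the steadiest of the 9 genes, with a coefficient of variation of 6.09% at ZT20 and 8.01% at ZT8, and the groups did not overlap. Its difference was 0.39 with a standard error of 0.13 and a 95% interval of 0.081 to 0.69 (limma adjusted p = 0.0805). Median-ratio scaling and quantile normalization left 0.14 and 0.16, and the length and GC correction 0.070.

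Csnk1d (ENSMUSG00000025162) varied more within a group than between groups. It measured 89.5, 112, 163 and 170 TPM across the ZT20 replicates 1 to 4 and at 120, 78.0 and 131 TPM in ZT8 replicates 1 to 3. The 2 high ZT20 samples were those in which Ddx3y was listed at 0. The difference was 0.27 (95% interval −0.33 to 0.87, limma adjusted p = 0.488), and without these 2 libraries it was −0.090. Fbxw11 had the same split of ZT20 samples (below), and what part sex-linked differences had in it was not tested. Csnk1d was on average 4.33 times Csnk1e at ZT20 and 4.72 times at ZT8, as geometric means of the ratios within samples.

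The GSK3 kinases had the largest differences after Csnk2a1, without passing. Both are insulin- and Wnt-regulated kinases, and inhibiting them alters clock period. Gsk3b (ENSMUSG00000022812) was at 140, 208, 137 and 140 TPM at ZT20 and at 86.4, 50.9 and 127 TPM at ZT8. The groups did not overlap, with ZT20 replicate 2 far above its group and ZT8 replicate 3 just below the lowest ZT20 sample. The difference was 0.89 with a standard error of 0.29 and a 95% interval of 0.23 to 1.55 (limma adjusted p = 0.0682). Gsk3a (ENSMUSG00000057177) was at 16.8, 13.6, 16.8 and 16.2 TPM at ZT20 and at 8.77, 3.91 and 12.4 TPM at ZT8. These groups did not overlap either, and the ZT8 values spread 3.16-fold against 1.23-fold at ZT20. The difference was 0.96 with a standard error of 0.32 and a 95% interval of 0.24 to 1.68 (limma adjusted p = 0.0689). Without ZT8 replicate 3, the highest ZT8 sample of both genes, Gsk3b differed by 1.20 (limma adjusted p = 0.0325) and Gsk3a by 1.28 (limma adjusted p = 0.0365). Without ZT8 replicate 2, the lowest, they differed by 0.55 and 0.56 (limma adjusted p = 0.119 and 0.0638). Gsk3b has the longest transcript of the 9 genes (8303 nt) and Gsk3a the shortest (2260 nt). The length and GC correction left 0.23 for Gsk3b and 0.78 for Gsk3a (limma adjusted p = 0.650 and 0.0806).

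In 4 of the 9 genes (Csnk1e, Csnk2a1, Gsk3a and Gsk3b) the lowest ZT20 sample exceeded the highest ZT8 sample, which held for 24.5% of all tested genes. In the other 5 the ranges overlapped, so 4 of 9 were separated in either direction, against 33.2% of all tested genes.

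The beta-TrCP genes encode the substrate-binding F-box proteins of the ubiquitin ligase that takes up phosphorylated PER. Btrc (ENSMUSG00000025217) was at 61.3, 60.4, 62.7 and 71.1 TPM at ZT20 and at 45.9, 30.6 and 60.8 TPM at ZT8. The ZT20 values were close together, and ZT8 replicate 3 fell among them. The difference was 0.52 with a standard error of 0.21 and a 95% interval of 0.036 to 1.01 (limma adjusted p = 0.123). Without ZT8 replicate 3 it was 0.75 (limma adjusted p = 0.0448), and without ZT8 replicate 2 it was 0.27 (limma adjusted p = 0.225). Fbxw11 (ENSMUSG00000020271) was at 122, 103, 154 and 165 TPM at ZT20 and at 132, 89.1 and 97.1 TPM at ZT8. As for Csnk1d, ZT20 replicates 3 and 4 were the highest samples, and ZT8 replicate 1 lay above the other 2 ZT20 samples. The difference of 0.35 did not pass (95% interval −0.10 to 0.81, limma adjusted p = 0.243), and without ZT20 replicates 3 and 4 it was 0.10.

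Fbxl21, the F-box protein for CRY, and Usp2 turned on a single library. Fbxl21 (ENSMUSG00000035509) was at 4.85, 2.69, 4.89 and 3.88 TPM at ZT20 and at 5.75, 0.715 and 3.35 TPM at ZT8. Its highest and its lowest sample were both at ZT8. The difference was 0.43 (95% interval −0.58 to 1.44, limma adjusted p = 0.512), and it was −0.12 without ZT8 replicate 2. Usp2 (ENSMUSG00000032010) was at 15.9, 12.8, 14.2 and 19.1 TPM at ZT20 and at 13.9, 2.38 and 19.3 TPM at ZT8. Here too the highest and the lowest sample were both at ZT8, and the ZT8 values spread 8.14-fold. The difference was 0.70 (95% interval −0.54 to 1.93, limma adjusted p = 0.386), and −0.092 without ZT8 replicate 2 (limma adjusted p = 0.779).

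ZT8 replicate 2 touched nearly the whole set. It was the lowest of the 7 samples for 8 of the 9 genes, and for 40.2% of all tested genes. The exception was Csnk2a1, for which it was the highest ZT8 sample. This library also had the lowest neuronal marker sum, 13762 TPM, and the fewest genes above 0 TPM. The part of these in the low values was not tested; without this library the differences of Csnk1d and Fbxw11 were 0.048 and 0.24.

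Neuronal minus non-neuronal marker scores (mean log2 values) were 4.65 to 5.21 at ZT20 and 3.83 to 4.50 at ZT8, so the score and the group cannot be told apart. With that score as a covariate the difference of Csnk2a1 was 2.44 (limma adjusted p = 0.112). It was 0.077 for Gsk3a and 0.42 for Gsk3b, against 0.96 and 0.89 without the score. It was −0.62 for Usp2, −0.12 for Fbxl21 and −0.018 for Btrc. That fit called 0 genes in the whole table, with 1717 at an unadjusted p under 0.05.

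Pairs of paralogs were compared as TPM ratios within a sample, which do not depend on the scaling between samples. For 4 pairs the two-sided exact permutation test over 35 splits, whose smallest p is 0.0286, called no ratio different between the groups. Its p-values were 0.514 to 0.686, each 0.686 after adjustment over the pairs. The Csnk2a1 to Csnk2a2 ratio was 48.0, 70.3, 47.1 and 61.0 at ZT20 and 81.8, 46.9 and 23.7 at ZT8, so the ZT8 values lay on both sides of those at ZT20. Its log2 difference was 0.31 (exact p = 0.571), 0.56 with a pseudocount of 1 (exact p = 0.143) and 0.85 after the length and GC correction, where the exact p was the smallest possible, 0.0286 (0.114 adjusted over the 4 pairs). Gsk3a was 0.120, 0.0653, 0.122 and 0.116 of Gsk3b at ZT20 and 0.101, 0.0768 and 0.0970 of it at ZT8. The log2 difference in this ratio was 0.17 (exact p = 0.514), and 0.55 after the length and GC correction (exact p = 0.114, adjusted 0.229). Btrc was 0.407 to 0.585 of Fbxw11 at ZT20 and 0.344 to 0.626 at ZT8. All 4 ranges overlapped between the groups.

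**Figure D3:**
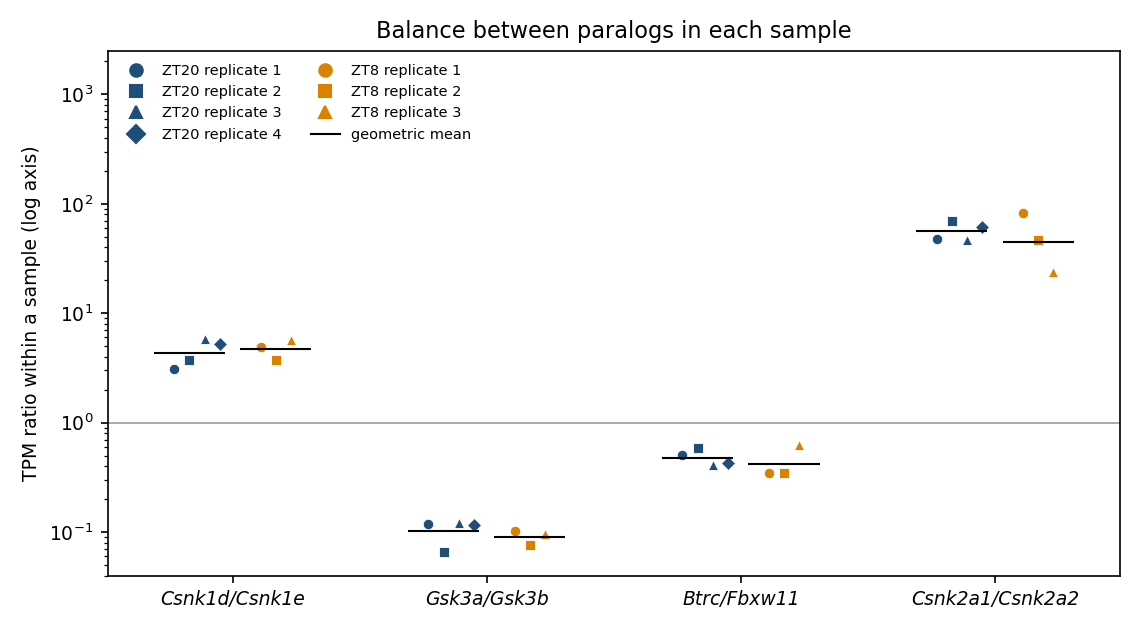
TPM ratio of 4 paralog pairs within each sample (log axis), ZT20 in blue and ZT8 in orange, a symbol for each replicate and a black line at the geometric mean. The ranges of the groups overlap for every pair, and the widest spread is that of Csnk2a1/Csnk2a2 at ZT8, 23.7 to 81.8.

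Transcript length moved with the differences. Over 10 groups of tested genes ordered by their longest transcript in GENCODE M21, the median log2 difference ran from −0.13 (median 1323.5 nt) to 0.69 (median 7971 nt). The 9 genes measured 2260 to 8303 nt. Csnk1d, Csnk2a1, Fbxw11 and Usp2 shared the group with a median of 3943 nt, where the median difference was 0.36 and 13.5% of genes were called higher. After a loess correction for both length and GC content in every sample, Csnk2a1 differed by 1.09 and no longer passed (limma adjusted p = 0.0634), 0 of the 9 genes passed and 2 had an unadjusted p under 0.05, against 8.84% and 27.1% of all genes in that fit. The other differences were then −0.092 for Csnk1d, 0.0062 for Fbxw11, 0.16 for Btrc, 0.21 for Fbxl21 and 0.31 for Usp2.

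**Figure D4:**
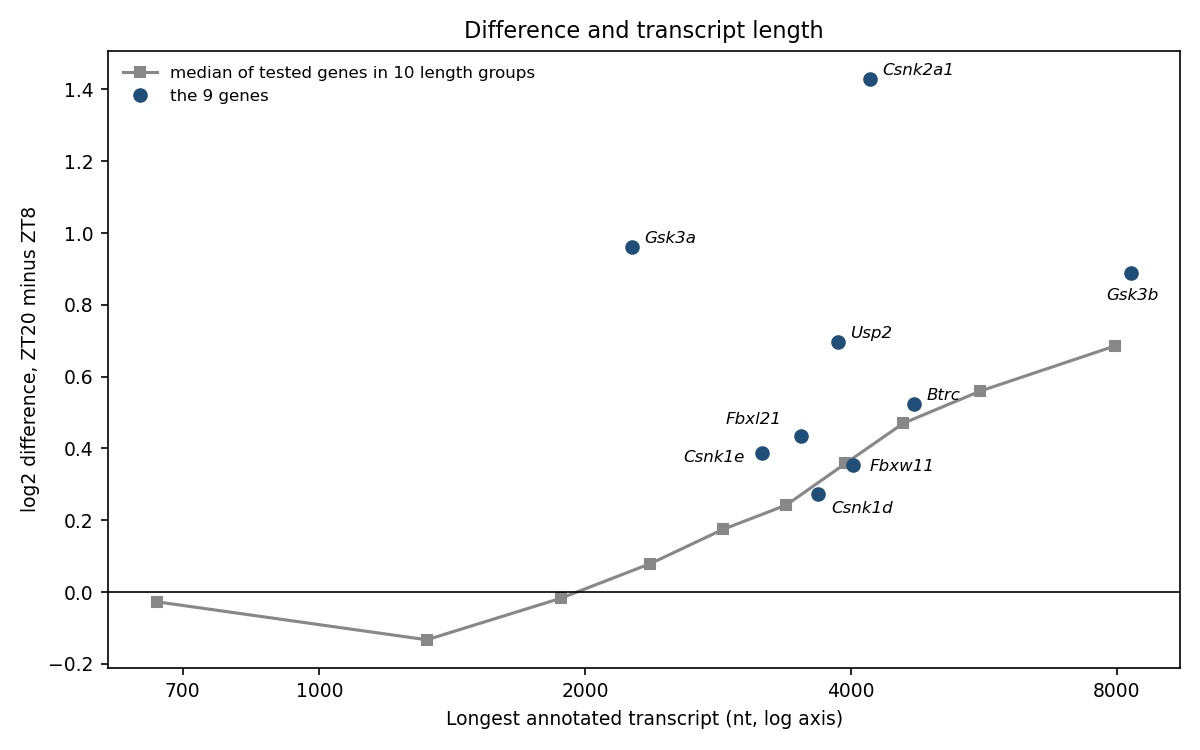
Log2 difference of the 9 genes (blue points) against the length of their longest annotated transcript (nt, log axis), with the median difference of tested genes in 10 length groups (grey squares). Csnk2a1 (1.43) and Gsk3a (0.96) lie farthest above the grey line, and Csnk1d, Fbxw11 and Btrc lie near it.

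The genes around the set were taken from 4 lists of other enzymes and substrates of clock protein turnover, 41 genes that were all tested. By the same limma fit 12 of the 41 (29.3%) passed, 11 higher and 1 lower, against 16.4% of all tested genes. Over 21 alternatives the share lay above that of all genes in 16 and below it in 3, and both were 0 in 2. With both scalings and the correction, no such excess or a small one was left: 7 of 41 (17.1%) against 16.0% with median-ratio scaling, 5 of 41 (12.2%) against 12.4% with quantile normalization, and 2 of 41 (4.88%) against 8.84% after the length and GC correction. Among 13 other kinases, 5 were higher and 0 lower, against 12.8% and 3.61% of all tested genes, with a median difference of 0.71 against 0.23. Prkaa1, the catalytic alpha-1 subunit of the energy sensor AMPK, which marks CRY for degradation, was at 39.2 to 49.6 TPM at ZT20 and 18.1 to 21.1 TPM at ZT8. Its difference of 1.13 passed (limma adjusted p = 0.00410) and was 0.79 after the length and GC correction, where it passed as well (limma adjusted p = 0.0152). Csnk1g2, a casein kinase 1 gamma, rose by 1.16 (limma adjusted p = 0.0143), Prkaa2 (AMPK alpha-2) by 0.79 (limma adjusted p = 0.0234) and Mapk9 (JNK2) by 0.74 (limma adjusted p = 0.0340). After the length and GC correction Csnk1g2, Prkaa2 and Mapk9 did not pass.

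Of 6 protein phosphatase genes, 1 was higher and 1 lower, against 12.8% and 3.61% of all genes, with a median of 0.17 against 0.23. Ppp2cb, a catalytic subunit of PP2A, was at 13.9 to 17.3 TPM at ZT20 and 3.97 to 6.96 TPM at ZT8, a difference of 1.49 (limma adjusted p = 0.00595). It was 1.53 after the length and GC correction (limma adjusted p = 0.00934). Ppp1ca, a catalytic subunit of PP1, which removes phosphate from PER, was at 467 to 602 TPM at ZT20 and 709 to 878 TPM at ZT8. Its difference of −0.58 passed (limma adjusted p = 0.0218), and it was −0.56 after the correction (limma adjusted p = 0.0524).

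Among 13 ubiquitin ligase parts, other ligases and deubiquitinases, 5 were higher and 0 lower, against the same 12.8% and 3.61% of all genes, with a median of 0.47 against 0.23. The ubiquitin ligase Huwe1 differed by 1.73 (limma adjusted p = 0.00891), the deubiquitinase Usp7, which acts on CRY, by 0.91 (limma adjusted p = 0.0153), the F-box protein Fbxw7 by 0.62 (limma adjusted p = 0.0235) and the deubiquitinase Usp9x by 0.98 (limma adjusted p = 0.0292). After the length and GC correction these 4 differences were 0.95, 0.49, 0.22 and 0.32, and none of the 4 passed.

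The substrates did not pass. Of 9 genes for PER, CRY, CLOCK, BMAL1 and REV-ERB proteins, limma called 0, against 16.4% of all tested genes. An unadjusted limma p under 0.05 was found for 3 of the 9, against 34.6% of all tested genes. Per1 averaged 3.86 ± 0.737 TPM over ZT20 samples (SD, n = 4) and 3.50 ± 2.02 TPM over ZT8 samples (SD, n = 3), Per2 2.13 ± 0.759 and 0.719 ± 0.616 TPM, and Per3 2.07 ± 1.00 and 1.44 ± 0.459 TPM. Cry1 averaged 10.4 ± 2.48 and 7.74 ± 3.11 TPM, and Cry2 ranged from 46.0 to 78.3 TPM at ZT20 and from 20.6 to 60.6 TPM at ZT8. The ranges of the groups overlapped for these 5 genes. Clock and Arntl, which encodes BMAL1, were the 2 of 9 substrates (22.2%) whose groups did not overlap. Both were higher at ZT20, as were 24.5% of all tested genes without overlap. They are named after their values were seen. Clock was at 6.63 to 9.35 TPM at ZT20 and 1.92 to 4.87 TPM at ZT8 (difference 0.95, limma adjusted p = 0.0545), and Arntl at 2.02 to 3.19 and 0.953 to 1.55 TPM (difference 0.70, limma adjusted p = 0.0809). Without ZT8 replicate 2, where 20.6% of all tested genes passed, both passed (limma adjusted p = 0.0292 and 0.0463). So did Nr1d1, which encodes REV-ERB alpha, in the other direction (−1.28, limma adjusted p = 0.00536, against −0.77 and 0.187 with all samples). After the length and GC correction the difference was 0.31 for Clock, 0.35 for Arntl and −1.005 for Nr1d1, and none of these 3 passed (limma adjusted p = 0.466, 0.386 and 0.0698). Of the 9 enzyme genes, all but Fbxl21 lay above Per1, Per2 and Per3 in both group means.

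For each of the 9 genes the tested genes with the most similar profile were found, as the smallest root mean square distance between centred log2(TPM + 1) values over the 7 samples. For Csnk2a1 they were Yod1 (distance 0.10) and Ado (0.103), with differences of 1.31 and 1.30. For Gsk3b they were Tmem163 and Man1c1 (0.118 and 0.128), and for Gsk3a Mllt1 and Ppfia3 (0.0787 and 0.0824). Csnk1d lay nearest Gba2 and Fgfr1 (0.0620 and 0.0885), Csnk1e nearest L3mbtl2 and Srpr (0.0545 and 0.0557). Fbxw11 lay nearest Cpsf7 and Zfp664 (0.0437 and 0.0460), and Btrc nearest Rab2b and Kif5b (0.0711 and 0.0748). Fbxl21 lay nearest Mdc1 and Zfp362 (0.103 and 0.109), and Usp2 nearest Slc25a35 and Paox (0.111 and 0.117). No member of the set was among the 2 nearest genes of another.

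Read assignment is uncertain for the genes that overlap others in GENCODE M21. Antisense genes lie over Csnk1d, Csnk1e, Gsk3a and Usp2, a processed pseudogene over Btrc, small RNA genes over Gsk3b, and a protein-coding gene also over Usp2. The antisense gene at Gsk3a, 9130221H12Rik, was at 1.45 TPM or more in each ZT20 sample and at 0.0559 to 1.10 TPM at ZT8. The overlapping antisense, pseudogene and protein-coding genes of Csnk1d, Csnk1e, Btrc and Usp2 were each at 0.855 TPM or less in every sample. Csnk2a1, Fbxl21 and Fbxw11 overlap no other gene in that annotation.

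**Figure D5:**
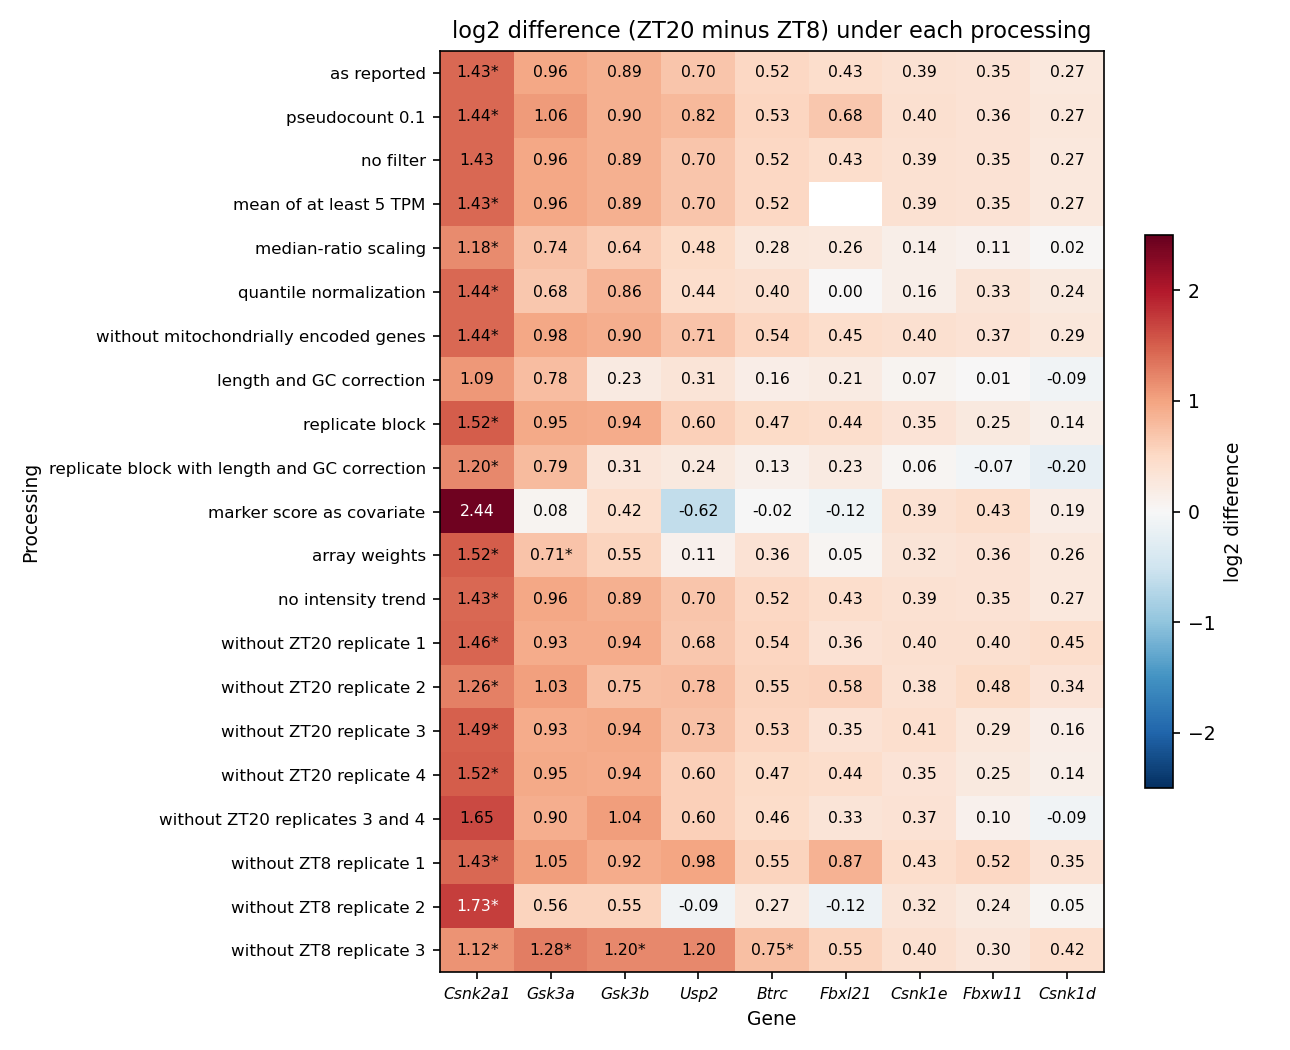
Log2 difference of each gene (columns) under each processing (rows), with red for higher at ZT20, blue for lower, and an asterisk for an adjusted p-value under 0.05. Csnk2a1 is positive in every row (1.09 to 2.44), while Usp2, Fbxl21, Csnk1d, Btrc and Fbxw11 change sign in at least 1 row. The blank cell is Fbxl21, which is below the stricter filter of 5 TPM.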

How the data were processed

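RNA sequencing of 7 ganglion samples was analysed from the authors' deposited table of TPM (transcript abundance per length, scaled to the same total in every sample), with 1 column per sample per the file headers; 0 per-sample columns were left unused. The submitters' processing notes list FastQC 0.11.9, Trim Galore 0.6.6, Salmon 1.6.0 and DESeq2 1.34.0 and the build GRCm39, with no role or order. The annotation release is not given in the sources used here, and TPM keeps no depth, so counting error is unknown.

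Groups came from the sample titles. The 14800 genes averaging 1 TPM or more were fitted as log2(TPM + 1) with limma 3.58.1 (intensity trend, R 4.3.3), all 7 samples, no covariate, two-sided, with Benjamini-Hochberg adjustment over all tested genes. A difference on this scale understates changes of low genes. Ratios were tested with scipy 1.17.1, and figures were drawn with matplotlib 3.10.9. Transcript length (longest transcript), GC content and overlaps came from GENCODE M21 (GRCm38), matched by gene identifier for 14745 tested genes (99.6%). That build differs from the one in the notes, so lengths and overlaps are those of GRCm38, and the only coordinates given are those of RefSeq promoter windows on GRCm38.p6.

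The 9 genes and all lists were chosen with earlier results of these data known. The rule for named genes covered the 9 genes, Csnk2a2, Csnk2b and the Per and Cry genes whatever their result, up to 4 called genes with the smallest adjusted p from each other list, and the 2 nearest profiles of each gene; some items under this rule are not reported here. Alternatives were another pseudocount, filters, scalings, a loess correction (span 0.3) for length and GC content, the replicate block, a marker score as covariate, array weights, no intensity trend, a looser threshold and leaving out libraries. The block together with the loess correction was added after the data were seen.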

Additional observations from a re-analysis of the deposited data

Results flagged for a closer look

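Among 30 values checked in the 4 ZT20 samples, 2 had 1 sample far from the other 3, and chance gives about 1.5 in 30. Gsk3b reached 208 TPM in ZT20 replicate 2, against 137 to 140 TPM in its group otherwise, and the gap to the nearest sample made up 0.963 of the group's whole range. The log2 ratio of Gsk3a to Gsk3b was −3.94 in the same sample and −3.11 to −3.03 in the remaining ZT20 samples (0.917 of the range); it contains the same Gsk3b value. Without ZT20 replicate 2 the Gsk3b difference was 0.75 (limma adjusted p = 0.133). ZT20 replicate 2 is the library that held both Y-linked transcripts and Xist, and the part of that in the high value was not tested.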

How the results depend on the processing

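Under 21 alternatives Csnk2a1 was higher at ZT20 each time and lost the threshold in 4: without a filter (1.43, limma adjusted p = 0.0517), after the length and GC correction (1.09, 0.0634), with the marker score (2.44, 0.112) and without ZT20 replicates 3 and 4 (1.65, 0.141). Without a filter 31897 genes were tested and the standard error of Csnk2a1 was 0.31, against 0.29 in the reported fit. The last of these fits had fewer samples. What part these or other things had in the losses was not tested. Gsk3a passed with array weights (0.71). Signs reversed for Csnk1d after the length and GC correction (−0.092), without ZT20 replicates 3 and 4 (−0.090) and with the block and correction together (−0.20), which also reversed Fbxw11 (−0.071). The marker score reversed Fbxl21 (−0.12), Btrc (−0.018) and Usp2 (−0.62). The Gsk3a to Gsk3b ratio reversed without ZT20 replicates 3 and 4 (−0.043).

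The number of the 9 genes past the threshold was 0 without a filter, after the length and GC correction, with the marker score and without ZT20 replicates 3 and 4 (5, 2, 1 and 2 at an unadjusted limma p under 0.05, against 20.2%, 27.1%, 11.6% and 16.2% of all genes), 2 with array weights (against 26.3% of all genes) and 4 at an adjusted p-value under 0.10 (against 27.6%). The numbers over all genes and over the 41 other pathway genes were 1178 and 7 without a filter, 1304 and 2 after the correction, 3899 and 22 with array weights, 4079 and 19 at 0.10, and 0 and 0 with the marker score and without ZT20 replicates 3 and 4 (10 and 12 of the 41 at an unadjusted limma p under 0.05, against 11.6% and 16.2% of all genes). Of the 41, 7 passed under median-ratio scaling and 5 under quantile normalization (17.1% and 12.2%, against 16.0% and 12.4% of all genes).

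Leaving out 1 library at a time gave 723 to 3047 genes in all, 1 to 4 of the 9 and 4 to 18 of the 41. The number over all genes fell furthest without ZT20 replicate 1 (1132), 3 (723) or 4 (855), and that of the 41 to 7, 4 and 4. The log2 differences ran from 0.048 to 0.45 for Csnk1d, 0.32 to 0.43 for Csnk1e, 1.12 to 1.73 for Csnk2a1, 0.56 to 1.28 for Gsk3a, 0.55 to 1.20 for Gsk3b, −0.12 to 0.87 for Fbxl21, 0.27 to 0.75 for Btrc, 0.24 to 0.52 for Fbxw11 and −0.092 to 1.20 for Usp2. Ratio differences ran from −0.29 to 0.035 for Csnk1d/Csnk1e, 0.048 to 0.39 for Gsk3a/Gsk3b, 0.029 to 0.46 for Btrc/Fbxw11 and −0.15 to 0.74 for Csnk2a1/Csnk2a2; Csnk1d/Csnk1e was 0.0020 without ZT8 replicate 3.

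Replicate numbers occur in both groups, and no pairing is labelled. Deviations of same-numbered samples correlated at −0.014, 0.15 and 0.083, and those of differently numbered samples at −0.17 to 0.15. With so few samples these values cannot decide whether the numbers pair the samples. With the replicate block, in which ZT20 replicate 4 adds nothing, 1174 genes, 1 of the 9 (Csnk2a1, 1.52, limma adjusted p = 0.0136) and 5 of the 41 passed; with the block and the correction together it was 520, 1 and 1. Because TPM keeps no depth, how far the counts limit Fbxl21, the lowest of the 9, is unknown.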

Other observations

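The balance of casein kinase 2 subunits was looked at after the values were seen, and it has no test. Csnk2a1 stood at 2.91, 6.19, 3.53 and 3.27 times Csnk2b in ZT20 replicates 1 to 4 and at 1.85, 3.43 and 0.817 times in ZT8 replicates 1 to 3. The ZT8 sample with the highest ratio fell within the ZT20 range, and the ZT8 replicate 3 ratio was the one below 1. Adding Csnk2a2 to the catalytic side gave 2.97 to 6.28 at ZT20 and 0.851 to 3.50 at ZT8.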
